A study of Mus musculus with 6 samples.

Results

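Kinesin, kinetochore and spindle genes were described in mouse CD4+CD25- T cells grown for 4 days on plates that carried a T cell receptor stimulus with or without the B7 family proteins B7-2 and BTNL2. The genes were chosen by symbol. They comprise every numbered Kif gene (kinesin motors), every Cenp gene (centromere proteins), the Aurora and Polo-like kinases, and listed genes of the kinetochore, the spindle checkpoint, chromosome condensation and cytokinesis. A gene was kept where a probe set named that gene alone, and was read from the probe set of highest mean. This gave 89 genes of the 17097 measured, read by 174 of 45141 probe sets. The symbol rule used no measured value beyond that of the probe set, but it was set with earlier results of these data known.

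The data were 6 single-colour oligonucleotide arrays of messenger RNA, 2 per culture condition. In the BTNL2 wells the plate was coated with anti-CD3 antibody (2 µg/ml), which engages the T cell receptor complex, the costimulatory ligand B7-2 (CD86) as an Fc fusion (3 µg/ml), and the butyrophilin-like protein BTNL2 as an Fc fusion (11 µg/ml). The B7-2 wells had anti-CD3, B7-2.Fc and control IgG, and the anti-CD3 wells had anti-CD3 and control IgG. Wells of all 3 groups held TGF-beta (0.36 ng/ml) and IL-2 (10 ng/ml), and all cells came from female C57BL/6 mice whose age is not given in the sources used here. CD25+ cells had been depleted, and CD4+ cells then selected, with magnetic beads. The cells came from spleen by one label and from spleen and lymph nodes by another. Nothing says that the 2 cultures of a group came from separate mice, so p-values measure the spread between these cultures and arrays, whose number limits the precision.

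At mitosis the replicated chromosomes are condensed, captured by spindle microtubules at their kinetochores, and pulled apart. The inner centromere proteins mark the site, the outer kinetochore binds microtubules, and the spindle checkpoint holds back the anaphase-promoting complex until every chromosome is attached. Kinesins are motors that walk along or take apart microtubules, and some serve the spindle while others carry cargo in the cell body or in cilia. T cells divide rapidly after receptor stimulation with costimulation. Transcripts of many mitotic genes are made late in the cell cycle, through promoter elements named the cell cycle homology region, often with CCAAT boxes, which bind the factor NF-Y.

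Promoter sequences in the RefSeq table (build GRCm38.p6) were found for 78 of the 89 genes, which had 88 entries of 300 bases each, 250 before and 50 after the annotated start. The letters TTTGAA and TTTAAA of the cell cycle homology region and CCAAT were searched on both strands, without regard to overlap. TTTGAA stood in 35 of the 88 promoters (39.8%), against 17.9% of all 32851 promoters in the table. Within the last 50 bases before the start it stood in 15 (17.0%), against 2.82%. CCAAT was found in 54.5% against 37.4%, and TTTAAA in 14.8% against 13.2%. TTTGAA was most common among the mitotic kinesins, in 9 of 10 promoters, and was in 3 of 25 (12.0%) for the kinesins of other roles. These are matches of letters, not bound sites, and they were not tested. The 120 bases before the start are shown for 4 genes of mitosis and for the 2 genes that differed most between BTNL2 and B7-2 wells. Capitals mark TTTGAA, which reads TTCAAA on the other strand. They also mark TTTAAA, which reads alike on both, and CCAAT, which reads ATTGG on the other.
Cdc20 (chr4:118437344-118437463, minus strand): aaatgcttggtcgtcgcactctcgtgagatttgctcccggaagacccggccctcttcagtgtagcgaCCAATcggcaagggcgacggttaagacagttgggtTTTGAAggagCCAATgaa
Plk1 (chr7:122159315-122159434, plus strand): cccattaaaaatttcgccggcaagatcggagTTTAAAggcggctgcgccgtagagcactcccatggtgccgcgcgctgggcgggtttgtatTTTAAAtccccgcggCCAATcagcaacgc
Top2a (chr11:99024190-99024309, minus strand): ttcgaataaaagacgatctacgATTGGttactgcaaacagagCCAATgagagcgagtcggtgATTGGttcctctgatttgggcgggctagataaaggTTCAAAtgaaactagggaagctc
Kif11 (chr19:37376262-37376381, plus strand): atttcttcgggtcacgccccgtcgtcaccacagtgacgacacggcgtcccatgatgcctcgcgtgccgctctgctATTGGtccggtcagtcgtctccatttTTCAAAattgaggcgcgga
Kif3a (chr11:53567249-53567368, plus strand): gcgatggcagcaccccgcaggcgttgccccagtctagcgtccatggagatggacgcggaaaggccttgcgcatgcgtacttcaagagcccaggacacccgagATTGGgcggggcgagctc
Plk2 (chr13:110394924-110395043, plus strand): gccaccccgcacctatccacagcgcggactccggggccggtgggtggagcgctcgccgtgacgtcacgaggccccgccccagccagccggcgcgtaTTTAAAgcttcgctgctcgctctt

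In Cdc20, Top2a and Kif11 the first of the 6 letters of TTTGAA lay at -18, -23 and -19 from the start, with CCAAT further upstream in each. Plk1 had TTTAAA at -89 and -29. Plk2 had TTTAAA at -24 and no CCAAT in the printed stretch, and Kif3a had CCAAT at -18 without either form of the cell cycle homology letters. Of the promoters of genes later called higher in BTNL2 than in anti-CD3 wells, 12 of 28 (42.9%) held TTTGAA, beside 23 of 51 (45.1%) for genes not called and 0 of 9 for genes called lower. The TTTGAA share therefore was similar in the genes called higher and in those not called.

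**Figure D1:**
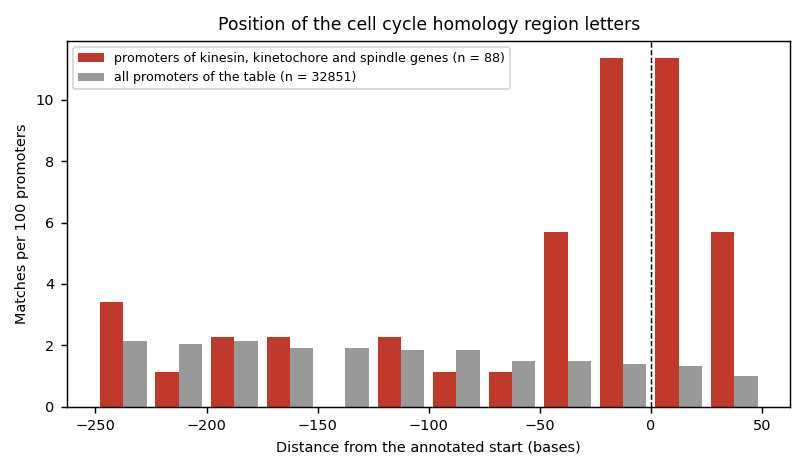
Matches of TTTGAA on either strand per 100 promoters (vertical axis) in bins of 25 bases by distance from the annotated start (horizontal axis), for the 88 promoters of kinesin, kinetochore and spindle genes (red) and all 32851 promoters (grey). The red bars are tallest in the bins on either side of the start, while the grey bars are lower there than upstream, at 2.13 in the first bin, 1.39 in the last before the start and 0.986 in the last after it.

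Most of these genes differed little between the conditions. The few large differences were in Plk2, Kif3a and Kif21b. The genes of chromosome segregation leaned to higher intensity in BTNL2 than in anti-CD3 wells, all by less than 2-fold. A gene was called at a Benjamini-Hochberg adjusted p under 0.05 over all 17097 genes in limma's moderated test. Log2 differences are given with their standard error. The 3 comparisons share wells, so their counts are not independent of each other. A lower intensity in such bulk samples can come from fewer dividing cells or from less RNA per cell, which cannot be told apart.

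Between B7-2 and anti-CD3 wells 23 of the 89 genes (25.8%) were called, near the 24.5% of all genes. Higher calls numbered 15 (16.9%, against 11.2% of all genes), and lower calls 8 (8.99%, against 13.3%). The median log2 difference was 0.12, beside -0.00 over all genes. Between BTNL2 and B7-2 wells 20 genes (22.5%) were called, near the 20.4% of all genes, with 14 higher (15.7%, against 9.52%) and 6 lower (6.74%, against 10.8%). The median was 0.07 beside -0.01. Between BTNL2 and anti-CD3 wells 40 genes (44.9%) were called, above the 30.4% of all genes. Of these, 30 were higher (33.7%, against 14.2%) and 10 lower (11.2%, against 16.2%), and the median was 0.20 beside -0.00. At or above the 40th percentile of probe set intensity lay 88.8% of the set and 69.5% of all genes. Among such genes 29.1% of the set was called between BTNL2 and B7-2 wells against 32.4% of all, 32.9% between B7-2 and anti-CD3 wells against 38.8%, and 53.2% between BTNL2 and anti-CD3 wells against 45.7%. The set thus lay below all genes in the first 2 of these and above them in the third. With the mean over a gene's probe sets in place of the brightest, 3 calls were lost and 5 gained between BTNL2 and B7-2 wells, 2 lost and 6 gained between B7-2 and anti-CD3 wells, and 6 lost and 5 gained between BTNL2 and anti-CD3 wells.

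Called genes of this set changed by less than called genes at large. Their median fold was 1.38 between BTNL2 and B7-2 wells, against 1.56 for all called genes, and 2 of the 20 (10.0%) reached 2-fold, against 25.5%. Between B7-2 and anti-CD3 wells 1 of 23 reached 2-fold (4.35%, against 15.8%), and between BTNL2 and anti-CD3 wells 2 of 40 (5%, against 23.5%). In all, 50 genes were called in at least 1 comparison and 39 in none. Plk1, Plk2 and Kif21b were called in all 3. The matching shares over all genes were not counted, so these counts are not read as a trait of the set. Each of the 4 arrays of a comparison was also left out in turn. The 20 calls of BTNL2 against B7-2 wells then fell to 10 without BTNL2 array 1, 10 without BTNL2 array 2, 7 without B7-2 array 1 and 11 without B7-2 array 2. The 23 calls of B7-2 against anti-CD3 wells fell to 9 and 8 without either B7-2 array and to 10 and 9 without either anti-CD3 array. The 40 of BTNL2 against anti-CD3 wells fell to 30 and 21 without either BTNL2 array and to 19 and 18 without either anti-CD3 array. The share of all genes called also fell in these fits. For BTNL2 against anti-CD3 wells the share of the set lay above that of all genes only without BTNL2 array 1. In every other such fit of the 3 comparisons the set lay below all genes.

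**Figure D2:**
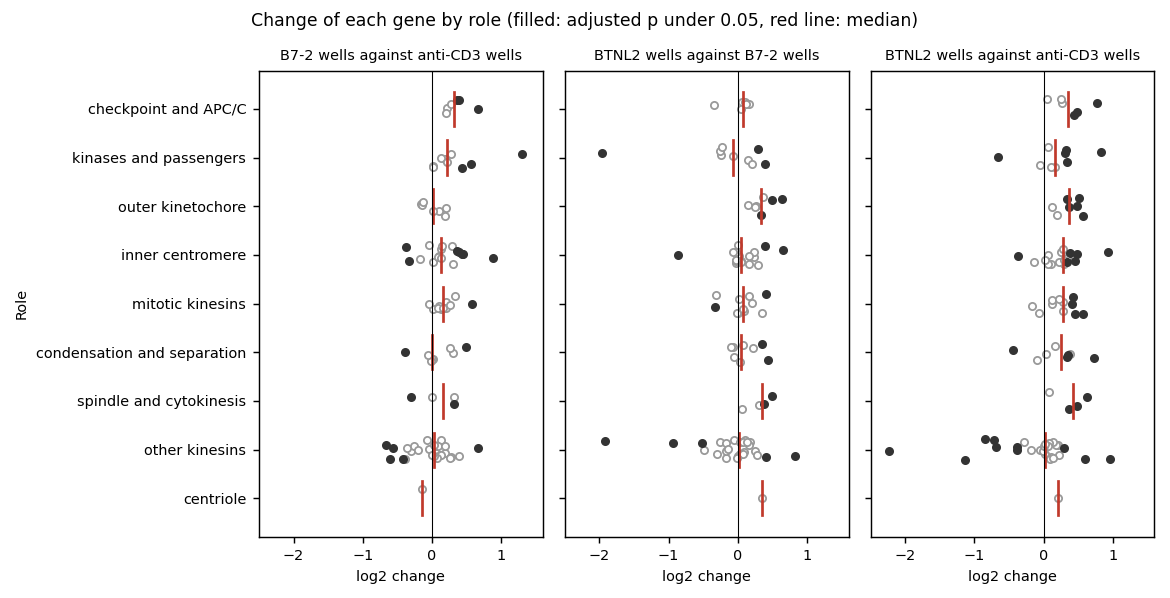
Log2 difference of each of the 89 genes (horizontal axis) by role (vertical axis) in the 3 comparisons. Filled points have an adjusted p under 0.05, open points do not, and the red line is the median of the role. In the right panel the points of the checkpoint and outer kinetochore genes all lie above 0, while other kinesins spread to both sides, down to -2.23.

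The intensities of cell type markers also differed between the wells. Over 7 of 7 CD8 T and NK cell markers the summed intensity was 2428 to 2835 in BTNL2 wells, 266 to 277 in B7-2 wells and 597 to 636 in anti-CD3 wells. Eomes alone gave 1337 and 991 of these in BTNL2 wells, against 16.3 to 21.1 in the others. Cd8a had 987 and 924 in BTNL2 wells, 119 and 107 in B7-2 wells and 302 and 321 in anti-CD3 wells. Klrb1c and Ncr1 were called in no comparison, and Ncr1 was near background in all wells, at 4.75 to 6.62. The B cell markers, 6 of 7 measured, summed to 680.4 to 874 in BTNL2, 367 to 371 in B7-2 and 703 to 764 in anti-CD3 wells, with Pax5 near background (6.33 to 8.01). Against anti-CD3 wells Ms4a1 was called higher in BTNL2 wells (280 and 384 against 133 and 128). Cd79b and Cd22 were called lower there, and the rest were not called. The CD4 T cell markers, 7 of 8 measured, summed to 16108 to 16265 in BTNL2, 17058 to 17280.0 in B7-2 and 21401 to 21820.3 in anti-CD3 wells. Myeloid markers, 7 of 7 measured, summed to 134 to 148 in BTNL2, 163 to 175 in B7-2 and 209 to 227 in anti-CD3 wells, and the erythroid marker Alas2, 1 of 3 measured, was at 4.64 to 5.74 in all. The part of these cells in the results below was not tested. Intensity at the 3' over the 5' end of Gapdh, a measure of RNA integrity, was 1.40 and 1.43 in BTNL2 wells and 1.27 to 1.37 in the others. The same ratio for Actb was 1.79 and 1.72 in BTNL2 wells, within the 1.67 to 1.92 of the others. Duplicate arrays correlated at 0.997 to 0.998 across genes.

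Of the 6 spindle checkpoint and anaphase-promoting complex genes, 3 were called higher in B7-2 than in anti-CD3 wells (50%, against 11.2% of all genes, median log2 difference 0.32). In BTNL2 wells 3 of 6 were called higher than in anti-CD3 wells (50%, against 14.2%, median 0.35). The shares of this and the following roles are given beside those of all genes and were not tested. None of the 6 was called between BTNL2 and B7-2 wells, against 20.4% of all genes. Cdc20, which activates the anaphase-promoting complex, had intensities of 589.5 and 697 in BTNL2 wells, 580.4 and 607 in B7-2 wells and 353 and 398 in anti-CD3 wells. Both costimulated groups lay above the anti-CD3 arrays without overlap, while BTNL2 and B7-2 arrays overlapped. The difference was 0.77 ± 0.12 between BTNL2 and anti-CD3 wells (1.71-fold, limma adjusted p = 0.00228), 0.66 ± 0.12 between B7-2 and anti-CD3 wells (adjusted p = 0.00641) and 0.11 ± 0.12 between BTNL2 and B7-2 wells (adjusted p = 0.578). The Cdc20 calls held with each of the 4 arrays left out (highest adjusted p 0.0196 and 0.0473).

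Bub1, a checkpoint kinase of the kinetochore, had 534 and 608 in BTNL2 wells, 501 and 547 in B7-2 wells and 412 and 402 in anti-CD3 wells. The anti-CD3 arrays were the lowest for it. It differed by 0.49 ± 0.10 between BTNL2 and anti-CD3 wells (adjusted p = 0.0103) and by 0.36 ± 0.10 between B7-2 and anti-CD3 wells (adjusted p = 0.0401). The second of these calls was lost whichever array was left out (adjusted p 0.0756 to 0.176), and the first in 2 of 4 (up to 0.0593). Ttk, the kinase that starts checkpoint signalling, took another course, with 260 and 279 in BTNL2 wells, 349 and 336 in B7-2 wells and 244 and 279 in anti-CD3 wells. It was highest in the B7-2 wells, by 0.39 ± 0.10 over anti-CD3 (adjusted p = 0.0299), and the difference of BTNL2 from B7-2 wells, -0.35 ± 0.10, did not pass (adjusted p = 0.0520), though it did with the mean over the Ttk probe sets (-0.38, adjusted p = 0.0298). Without 1 array the Ttk call held in 1 of 4 fits (adjusted p 0.0425 to 0.164). Mad2l1, which sequesters Cdc20, was called between BTNL2 and anti-CD3 wells alone of the 3 comparisons (0.43 ± 0.12, adjusted p = 0.0269, up to 0.129 without 1 array). Bub1b and Bub3, their partners in the inhibitory complex, had differences of 0.25 and 0.27 in that comparison, short of the threshold (adjusted p = 0.114 and 0.0836). A second Bub3 probe set was called there at 0.48 (adjusted p = 0.00626), and between B7-2 and anti-CD3 wells at 0.32 (adjusted p = 0.0437).

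The mitotic kinases and chromosomal passengers were mixed. Plk1, the Polo-like kinase of mitotic entry and spindle assembly, stood in the order BTNL2, B7-2 and anti-CD3, with intensities of 276 and 298 in BTNL2 wells, 220.3 and 214 in B7-2 wells and 166 and 157 in anti-CD3 wells. No 2 groups overlapped. The difference was 0.83 ± 0.09 between BTNL2 and anti-CD3 wells (1.78-fold, adjusted p = 0.000601), 0.40 ± 0.09 between BTNL2 and B7-2 wells (adjusted p = 0.0210) and 0.43 ± 0.09 between B7-2 and anti-CD3 wells (adjusted p = 0.0138). The first held without any 1 array (adjusted p at most 0.00682). The others had adjusted p of 0.0478 to 0.0940 and 0.0504 to 0.0815 when 1 array was left out.

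Aurka, the Aurora kinase of centrosomes and spindle poles, was highest in the B7-2 wells. Its intensities were 552 and 603 in BTNL2 wells, 671 and 690 in B7-2 wells and 454 and 470 in anti-CD3 wells, and the 3 groups did not overlap. B7-2 wells exceeded anti-CD3 wells by 0.56 ± 0.09 (1.47-fold, adjusted p = 0.00477), a call that held without each array (at most 0.0368). BTNL2 wells exceeded anti-CD3 wells by 0.32 ± 0.09 (adjusted p = 0.0339, up to 0.145 without 1 array), and differed from B7-2 wells by -0.24 ± 0.09 (adjusted p = 0.116). Birc5, the passenger protein survivin, had 4028 and 3942 in BTNL2 wells, 3293 and 3203 in B7-2 wells and 3253 and 3197 in anti-CD3 wells. It was higher in BTNL2 wells by 0.29 ± 0.08 than in B7-2 wells (adjusted p = 0.0474) and by 0.31 ± 0.08 than in anti-CD3 wells (adjusted p = 0.0301). Neither Birc5 call held when any array was left out (adjusted p 0.107 to 0.172 and 0.0773 to 0.128). Aurkb, the passenger kinase itself, had 184 and 286 in BTNL2 wells, 225 and 260.5 in B7-2 wells and 238 and 190.1 in anti-CD3 wells. The BTNL2 arrays spanned all the others, and no comparison passed (adjusted p = 0.604 to 0.860).

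Plk2, a Polo-like kinase of centriole duplication and stress responses rather than of chromosome segregation, made the widest swings of the kinases. Its intensities were 21.9 and 33.5 in BTNL2 wells, 111 and 99.8 in B7-2 wells and 45.03 and 40.4 in anti-CD3 wells. It was high in the B7-2 arrays and lowest in the BTNL2 arrays, with no overlap. B7-2 wells exceeded anti-CD3 wells by 1.30 ± 0.19 (2.46-fold, adjusted p = 0.00334). BTNL2 wells lay below B7-2 wells by 3.88-fold (-1.95 ± 0.19, adjusted p = 0.000539) and below anti-CD3 wells by 1.57-fold (-0.65 ± 0.19, adjusted p = 0.0391). The first 2 calls held with each array left out. The last did so in 1 of 4 fits and reached an adjusted p of 0.167. One probe set reads Plk2. Plk4, the master kinase of centriole duplication, was higher in BTNL2 than in anti-CD3 wells by 0.34 ± 0.09 (adjusted p = 0.0244), a call lost with any array left out (up to 0.125).

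**Figure D3:**
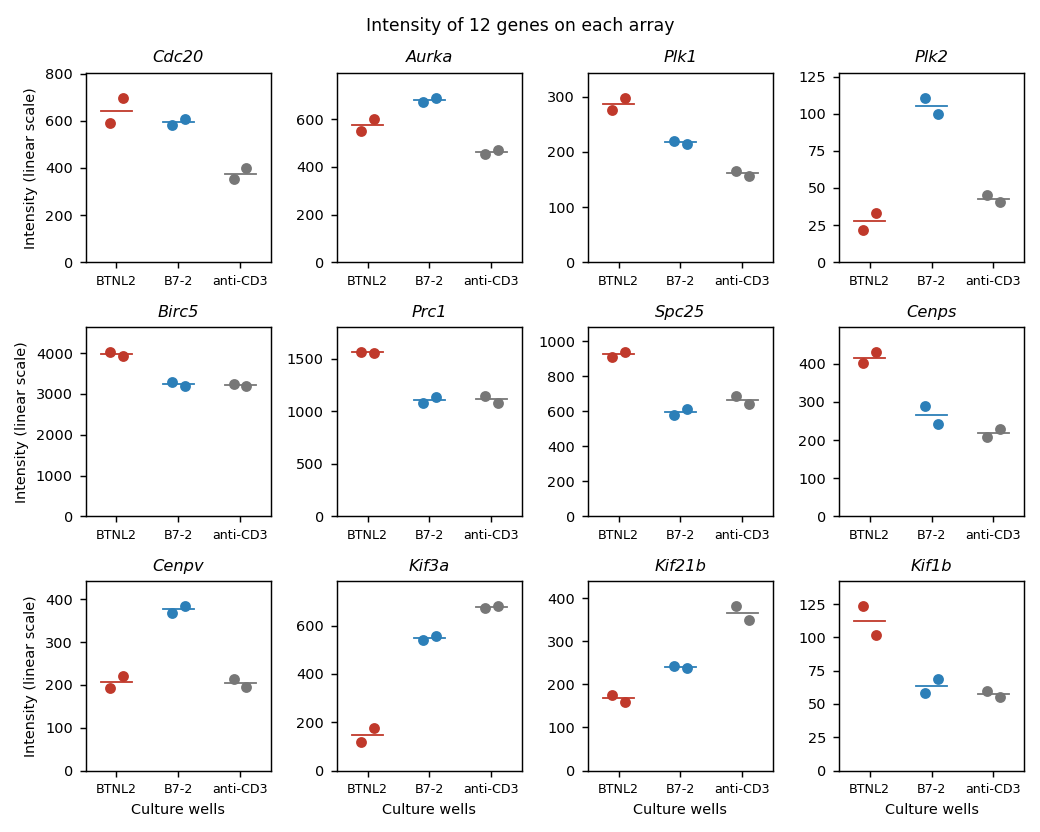
Intensity on a linear scale (vertical axis) of 12 of the genes on each of the 6 arrays, with BTNL2 wells in red, B7-2 wells in blue and anti-CD3 wells in grey. Points are arrays and lines are means of 2. Plk2 and Cenpv are highest in B7-2 wells, Prc1, Spc25, Cenps and Kif1b are highest in BTNL2 wells, and Kif3a and Kif21b are highest in anti-CD3 wells.

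Of the 7 outer kinetochore genes, 3 were called higher in BTNL2 than in B7-2 wells (42.9%, against 9.52% of all genes, median 0.34). Against anti-CD3 wells 5 were called higher in BTNL2 wells (71.4%, against 14.2%, median 0.36), and none was lower in either comparison. Of the 3 called against B7-2 wells, Spc25 alone kept its call with each array left out. None of the 7 was called between B7-2 and anti-CD3 wells with the brightest probe sets, against 24.5% of all genes (median 0.02). Cenpe was called there with the mean over its sets (0.46, adjusted p = 0.0151). Spc25, a subunit of the microtubule-binding NDC80 complex, had 914 and 939.6 in BTNL2 wells, 582 and 614 in B7-2 wells and 689 and 643 in anti-CD3 wells. Both BTNL2 arrays were the highest, and B7-2 and anti-CD3 arrays lay close together. It exceeded B7-2 wells by 0.63 ± 0.09 (1.55-fold, adjusted p = 0.00290) and anti-CD3 wells by 0.48 ± 0.09 (adjusted p = 0.00628). Both Spc25 calls held with each array left out (at most 0.0243 and 0.0467). Ndc80 itself had 527 and 582 in BTNL2 wells, 438 and 437 in B7-2 wells and 469 and 496 in anti-CD3 wells, and was called against B7-2 wells (0.34 ± 0.09, adjusted p = 0.0421, 0.0623 to 0.161 with 1 array left out).

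Among the Ska genes, whose complex couples kinetochores to shortening microtubules, Ska1 exceeded anti-CD3 wells by 0.56 ± 0.11 in BTNL2 wells (1.48-fold, adjusted p = 0.00894, at most 0.0503 without 1 array). Its difference from B7-2 wells was 0.37 ± 0.11 (adjusted p = 0.0659). With the mean over the Ska1 probe sets that difference was 0.30, which passed (adjusted p = 0.0345). Ska2 differed by 0.49 ± 0.14 from B7-2 wells (adjusted p = 0.0439) and by 0.51 ± 0.14 from anti-CD3 wells (adjusted p = 0.0276), with adjusted p up to 0.202 and 0.150 when 1 array was left out. Cenpe, the kinetochore motor of chromosome alignment, had 503 and 580.4 in BTNL2 wells, 434 and 468 in B7-2 wells and 435 and 406 in anti-CD3 wells. It was called against anti-CD3 wells (0.36 ± 0.11, adjusted p = 0.0397, up to 0.181). The second Cenpe probe set read larger differences, 1.05 between BTNL2 and anti-CD3 wells (adjusted p = 0.000561) and 0.82 between B7-2 and anti-CD3 wells (adjusted p = 0.00273), and the mean over both sets gave 0.71 in the first of these (adjusted p = 0.00170). Spc24, the NDC80 partner of Spc25, was called in that comparison as well (0.34 ± 0.10, adjusted p = 0.0450, up to 0.201), and Cenpf was called in none.

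The inner centromere genes, mostly subunits of the network built on the centromeric nucleosome, gave no single picture. Of 17 genes, 5 were higher and 2 lower in B7-2 than in anti-CD3 wells (29.4% and 11.8%, against 11.2% and 13.3% of all genes). Between BTNL2 and B7-2 wells 2 were higher and 1 lower (11.8% and 5.88%, against 9.52% and 10.8%). Between BTNL2 and anti-CD3 wells 5 were higher and 1 lower (29.4% and 5.88%, against 14.2% and 16.2%). Cenps, a histone-fold protein shared with the Fanconi anaemia pathway, had 402 and 431 in BTNL2 wells, 289.8 and 243 in B7-2 wells and 208 and 228 in anti-CD3 wells. The BTNL2 arrays were well above the rest. It differed by 0.93 ± 0.12 from anti-CD3 wells (1.91-fold, adjusted p = 0.00101) and by 0.65 ± 0.12 from B7-2 wells (1.57-fold, adjusted p = 0.00794), and both calls held with each array left out. Cenpv, a centromere protein that acts on heterochromatin and cytokinesis, was high in B7-2 wells alone, with 193 and 221 in BTNL2 wells, 368 and 384 in B7-2 wells and 214 and 196 in anti-CD3 wells. B7-2 wells exceeded anti-CD3 wells by 0.88 ± 0.10 (1.84-fold, adjusted p = 0.00148) and BTNL2 wells lay 1.82-fold below B7-2 wells (-0.86 ± 0.10, adjusted p = 0.00139). Both held with each array left out, and BTNL2 and anti-CD3 wells differed by 0.02 ± 0.10.

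Cenpq and Cenpi, network subunits, were higher in both costimulated groups. Cenpq had 652 and 644 in BTNL2 wells, 613 and 648 in B7-2 wells and 471 and 459 in anti-CD3 wells. It differed from anti-CD3 wells by 0.48 ± 0.09 in BTNL2 wells (adjusted p = 0.00505, held with each array left out) and by 0.44 ± 0.09 in B7-2 wells (adjusted p = 0.0100, up to 0.0626). Cenpi differed by 0.45 and 0.44 in the same comparisons (adjusted p = 0.0139 and 0.0194, up to 0.0704 and 0.104). Cenpt, the network's link to the NDC80 complex, ran the other way, with 317 and 308 in BTNL2 wells, 299 and 341 in B7-2 wells and 392.1 and 416 in anti-CD3 wells. It was lower in BTNL2 than in anti-CD3 wells (-0.37 ± 0.10, adjusted p = 0.0288), and no array could be left out without losing that call (adjusted p 0.0759 to 0.142). Cenpt was also lower in B7-2 than in anti-CD3 wells (-0.34 ± 0.10, adjusted p = 0.0482), as was Cenpl (-0.38 ± 0.09, adjusted p = 0.0189). Cenpp was higher in BTNL2 than in B7-2 wells (0.39 ± 0.10, adjusted p = 0.0379). With the mean over the Cenpp probe sets that difference was 0.23 (adjusted p = 0.157). None of these calls held with each array left out. Cenpa, the centromeric histone H3 variant, had 692 and 833 in BTNL2 wells, 694 and 783 in B7-2 wells and 766 and 693 in anti-CD3 wells. All 3 groups overlapped, and its differences were 0.06 ± 0.12 or smaller (adjusted p = 0.781 to 0.951).

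**Figure D4:**
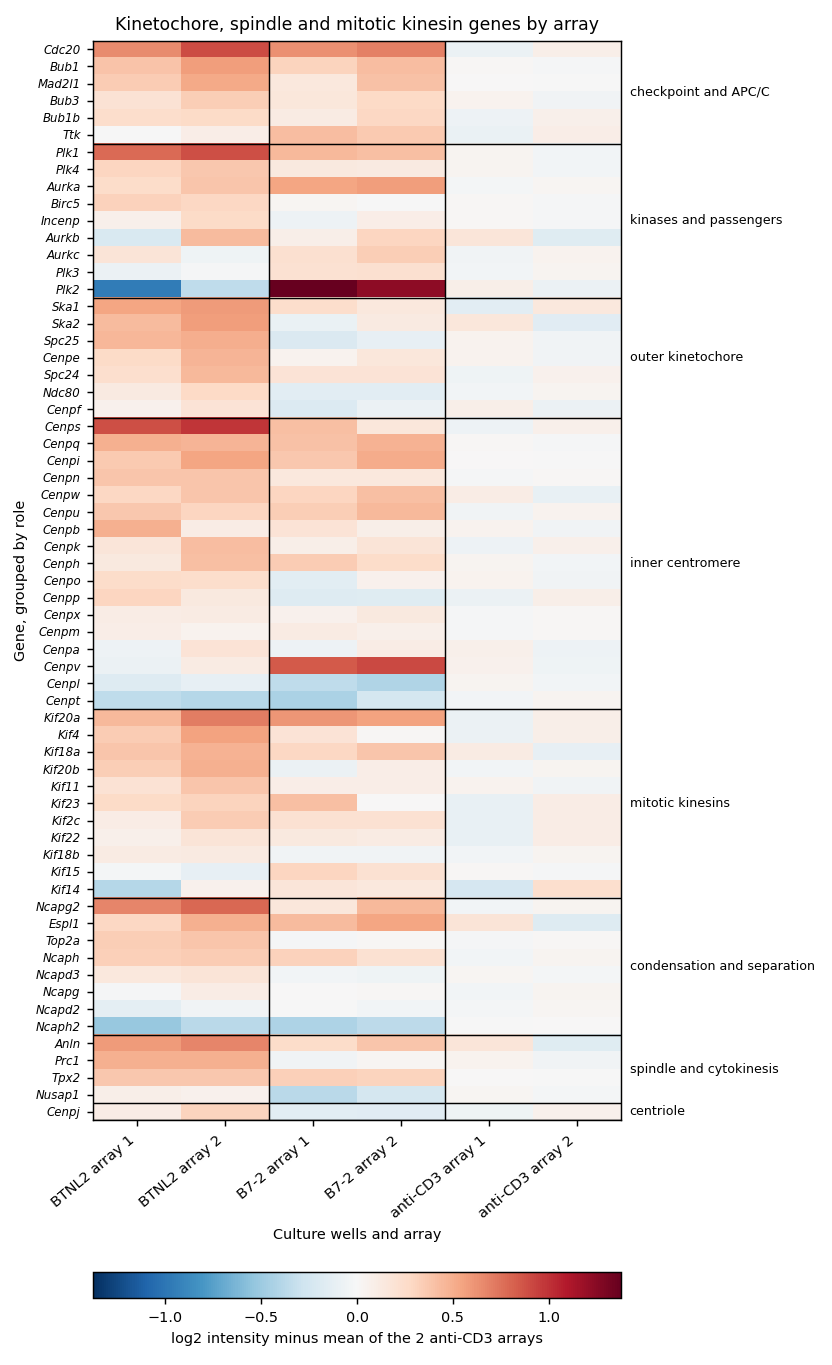
Log2 intensity minus the mean of the 2 anti-CD3 arrays (colour, red higher and blue lower) for 63 genes on each of the 6 arrays. Rows are genes grouped by role, without the kinesins outside the mitotic list, and columns are arrays. The BTNL2 columns are mostly red, with Plk2 and Ncaph2 among the blue rows, and Plk2 and Cenpv stand out in the B7-2 columns.

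Of the 11 mitotic kinesins, 1 was higher in B7-2 than in anti-CD3 wells (9.09% called, against 24.5% of all genes, median 0.15). Between BTNL2 and B7-2 wells 1 was higher and 1 lower (18.2%, against 20.4%, median 0.07). Between BTNL2 and anti-CD3 wells 4 were higher and none lower (36.4%, against 30.4%, median 0.28). Kif20a, which relocates the passenger complex for cytokinesis, had 247 and 297 in BTNL2 wells, 277 and 267 in B7-2 wells and 172 and 193 in anti-CD3 wells. The costimulated groups overlapped each other and both lay above the anti-CD3 arrays. It differed from anti-CD3 wells by 0.57 ± 0.12 in BTNL2 wells (adjusted p = 0.00916, up to 0.0625 without 1 array) and by 0.58 ± 0.12 in B7-2 wells (adjusted p = 0.0116, up to 0.0763). Kif18a, which dampens chromosome movement, Kif4, a chromosome-bound motor, and Kif20b, a cytokinesis motor, differed by 0.43, 0.46 and 0.41 between BTNL2 and anti-CD3 wells (adjusted p = 0.0225, 0.0238 and 0.0221). These 3 had adjusted p of up to 0.129, 0.131 and 0.113 with 1 array left out. With the mean over the Kif18a probe sets, of which the second lies near background, its difference was 0.23 (adjusted p = 0.127).

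Kif20b was also higher in BTNL2 than in B7-2 wells (0.41 ± 0.10, adjusted p = 0.0342, 0.0512 to 0.173 with 1 array left out). Kif11, the motor that pushes spindle poles apart, had 239.6 and 272 in BTNL2 wells, 222.5 and 222 in B7-2 wells and 216 and 203 in anti-CD3 wells. Its arrays did not overlap between groups, but its differences did not pass with the brightest probe set, at 0.29 ± 0.10 between BTNL2 and anti-CD3 wells (adjusted p = 0.0697) and 0.20 ± 0.10 between BTNL2 and B7-2 wells (adjusted p = 0.222). The mean over both Kif11 probe sets put the first at 0.44, which passed (adjusted p = 0.00601). Kif15, a motor that backs up Kif11, was called lower in BTNL2 than in B7-2 wells (-0.32 ± 0.09, adjusted p = 0.0430), but at intensities of 7.41 to 9.87 that lie close to background, and the call was lost with any array left out (0.0888 to 0.196). Kif2c, Kif14, Kif18b, Kif22 and Kif23 were called in no comparison.

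Chromosome condensation and separation genes included both directions. Of 8 genes, 3 were higher and 1 lower in BTNL2 than in anti-CD3 wells (50% called, against 30.4% of all genes, median 0.25). Between BTNL2 and B7-2 wells 2 were higher and none lower (25%, against 20.4%, median 0.05). Between B7-2 and anti-CD3 wells 1 was higher and 1 lower (25%, against 24.5%, median 0.01). Ncapg2, a condensin II subunit, had 737 and 798 in BTNL2 wells, 513 and 628 in B7-2 wells and 449 and 476 in anti-CD3 wells. The 3 groups did not overlap. It differed by 0.73 ± 0.12 from anti-CD3 wells (1.66-fold, adjusted p = 0.00339, held with each array left out) and by 0.43 ± 0.12 from B7-2 wells (adjusted p = 0.0425, up to 0.198). Top2a, the topoisomerase that untangles sister chromatids, had 1997 and 2053 in BTNL2 wells, 1568 and 1595 in B7-2 wells and 1565 and 1597 in anti-CD3 wells. B7-2 and anti-CD3 arrays coincided, and BTNL2 wells exceeded both by 0.36 ± 0.08 (adjusted p = 0.0238 against B7-2 and 0.0160 against anti-CD3). With 1 array left out these adjusted p were 0.0742 to 0.109 and 0.0489 to 0.0821, and with the mean over the Top2a probe sets the difference from B7-2 wells was 0.19 (adjusted p = 0.177).

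Ncaph2, another condensin II subunit, was lower, with 720.5 and 803 in BTNL2 wells, 770.2 and 806 in B7-2 wells and 1034 and 1037 in anti-CD3 wells. Its difference from anti-CD3 wells was -0.45 ± 0.09 in BTNL2 wells (adjusted p = 0.0103) and -0.39 ± 0.09 in B7-2 wells (adjusted p = 0.0218). The probe set read here can match other transcripts, and the mean over the 4 Ncaph2 probe sets gave -0.17 and -0.12, neither of which passed (adjusted p = 0.170 and 0.344). Ncapg2 and Ncaph2, both of condensin II, were called in opposite directions between BTNL2 and anti-CD3 wells with the brightest probe sets. That contrast was lost with the mean over the Ncaph2 probe sets. Espl1, the protease that cuts the ring holding sister chromatids, was higher in B7-2 than in anti-CD3 wells (0.49 ± 0.14, adjusted p = 0.0424, up to 0.195 without 1 array). It had 193 and 223 in BTNL2 wells, 215 and 231 in B7-2 wells and 179 and 141 in anti-CD3 wells.

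Of the 4 genes of spindle assembly and cytokinesis, 3 were higher in BTNL2 than in anti-CD3 wells (75%, against 14.2% of all genes, median 0.43). Prc1, which bundles the microtubules of the spindle midzone, had 1562 and 1556 in BTNL2 wells, 1078 and 1137 in B7-2 wells and 1149 and 1077 in anti-CD3 wells. The BTNL2 arrays stood apart from the other 4, which overlapped. It exceeded B7-2 wells by 0.49 ± 0.09 (1.41-fold, adjusted p = 0.00810, at most 0.0531 without 1 array) and anti-CD3 wells by 0.49 ± 0.09 (adjusted p = 0.00535, held with each array left out). Nusap1, a spindle microtubule-associated protein, had 1701 and 1671 in BTNL2 wells, 1241 and 1357 in B7-2 wells and 1639.6 and 1569.99 in anti-CD3 wells. It was lowest in B7-2 wells, by -0.31 ± 0.09 against anti-CD3 (adjusted p = 0.0483), and BTNL2 wells exceeded B7-2 wells by 0.38 ± 0.09 (adjusted p = 0.0264). Neither Nusap1 call held with any array left out. Tpx2, which activates Aurka on the spindle, was higher than in anti-CD3 wells by 0.37 in BTNL2 wells (adjusted p = 0.0130, up to 0.0674) and by 0.32 in B7-2 wells (adjusted p = 0.0306, up to 0.123). Anln, the cleavage furrow scaffold anillin, had 115 and 122 in BTNL2 wells, 91.7 and 99.8 in B7-2 wells and 86.4 and 68.1 in anti-CD3 wells. It was called between BTNL2 and anti-CD3 wells (0.63 ± 0.13, 1.55-fold, adjusted p = 0.00928, at most 0.0517 without 1 array). With the mean over the Anln probe sets that difference was 0.32 and did not pass (adjusted p = 0.0965).

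The 26 kinesins outside the mitotic list, most of which carry cargo along microtubules, held more lower than higher calls, as did all genes. Of these, 3 were higher and 7 lower in BTNL2 than in anti-CD3 wells (11.5% and 26.9%, against 14.2% and 16.2% of all genes). In all 38.5% were called there, against 30.4%, with a median of 0.02. In B7-2 wells 1 was higher and 4 lower than in anti-CD3 wells (3.85% and 15.4%, against 11.2% and 13.3%, median 0.03). Between BTNL2 and B7-2 wells 2 were higher and 3 lower (7.69% and 11.5%, median 0.02), near the 9.52% and 10.8% of all genes. The other 63 genes of the set had 27 higher and 3 lower (42.9% and 4.76%) between BTNL2 and anti-CD3 wells. These 3 were Plk2, Ncaph2 and Cenpt. The difference between the kinesins and the rest was not tested.

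Kif3a, a motor subunit of the kinesin-2 that builds cilia and carries cargo, had the largest difference of all 89 genes between BTNL2 and anti-CD3 wells. Its intensities were 117 and 178 in BTNL2 wells, 541 and 556 in B7-2 wells and 674 and 680.5 in anti-CD3 wells. Both BTNL2 arrays were far below the other 4. BTNL2 wells lay 3.79-fold below B7-2 wells (-1.92 ± 0.18, adjusted p = 0.000447) and 4.69-fold below anti-CD3 wells (-2.23 ± 0.18, adjusted p = 0.000171). Both calls held with each array left out, and all 4 Kif3a probe sets were called lower, at -1.92, -1.86, -1.34 and -1.58 against B7-2 wells and at -2.23, -1.31, -1.20 and -1.93 against anti-CD3 wells. B7-2 and anti-CD3 wells differed by -0.31 ± 0.18 (adjusted p = 0.287), and there the probe sets took both signs.

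Kif3b and Kif3c, of the same motor family, were also called lower in BTNL2 than in anti-CD3 wells, but by less than Kif3a. Neither was called between BTNL2 and B7-2 wells. Kif3b, which forms the motor with Kif3a, had 525 and 458 in BTNL2 wells, 465 and 402 in B7-2 wells and 635 and 641 in anti-CD3 wells. BTNL2 and B7-2 arrays overlapped. It was lower in B7-2 than in anti-CD3 wells (-0.56 ± 0.11, adjusted p = 0.0112, up to 0.0651) and in BTNL2 than in anti-CD3 wells (-0.38 ± 0.11, adjusted p = 0.0409, up to 0.183), while BTNL2 and B7-2 wells differed by 0.18 ± 0.11 (adjusted p = 0.325). Kif3c, the third kinesin-2 motor of that family, had 33.0 and 31.6 in BTNL2 wells, 35.5 and 31.9 in B7-2 wells and 51.6 and 54.8 in anti-CD3 wells. It was lower than in anti-CD3 wells in both, by -0.72 ± 0.10 (1.65-fold, adjusted p = 0.00141) and -0.66 ± 0.10 (1.58-fold, adjusted p = 0.00322), and both calls held with each array left out. Kif17, a homodimeric kinesin-2, was 1.61-fold lower in BTNL2 than in anti-CD3 wells (-0.69 ± 0.13, adjusted p = 0.00566), at 20.5 and 25.03 in BTNL2 wells and 39.2 and 33.9 in anti-CD3 wells. The mean over the Kif17 probe sets gave -0.20 and did not pass (adjusted p = 0.163).

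Kif21b, a kinesin-4 that slows microtubule growth, decreased in both steps. It had 176 and 159 in BTNL2 wells, 242 and 237 in B7-2 wells and 382 and 350.3 in anti-CD3 wells, with no overlap between groups. B7-2 wells lay 1.53-fold below anti-CD3 wells (-0.61 ± 0.10, adjusted p = 0.00464), BTNL2 wells 1.43-fold below B7-2 wells (-0.52 ± 0.10, adjusted p = 0.0100), and BTNL2 wells 2.19-fold below anti-CD3 wells (-1.13 ± 0.10, adjusted p = 0.000224). The call against B7-2 wells was lost in 1 of 4 fits with 1 array left out (adjusted p = 0.0555), and the others held in each. Kif13a, a kinesin-3 of endosome transport, had 32.6 and 25.9 in BTNL2 wells, 55.1 and 55.9 in B7-2 wells and 52.8 and 51.6 in anti-CD3 wells. The BTNL2 arrays were the lowest, by 1.91-fold against B7-2 wells (-0.93 ± 0.12, adjusted p = 0.00198) and 1.80-fold against anti-CD3 wells (-0.85 ± 0.12, adjusted p = 0.00193). The mean over the Kif13a probe sets gave -0.52 and -0.45, which passed as well (adjusted p = 0.00847 and 0.0103), and the other 2 probe sets alone did not pass.

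Kif1b, a kinesin-3 that carries mitochondria and vesicles, had 123.4 and 101 in BTNL2 wells, 58.0 and 68.4 in B7-2 wells and 60.1 and 55.4 in anti-CD3 wells. The BTNL2 arrays were the highest, by 1.78-fold over B7-2 wells (0.83 ± 0.13, adjusted p = 0.00498) and 1.94-fold over anti-CD3 wells (0.96 ± 0.13, adjusted p = 0.00165). Its probe sets disagreed: against anti-CD3 wells 3 of the 5 were called higher (0.96, 1.05 and 1.03), 1 was called lower (-0.60) and 1 was not called (0.23). Kif2a, a microtubule-depolymerising kinesin-13, was higher in BTNL2 wells, with 508 and 516 against 367 and 408 in B7-2 wells and 329.6 and 347 in anti-CD3 wells. It differed by 0.60 ± 0.09 from anti-CD3 wells (1.51-fold, adjusted p = 0.00282, held with each array left out) and by 0.40 ± 0.09 from B7-2 wells (adjusted p = 0.0232, up to 0.129). The mean over the Kif2a probe sets put the second difference at 0.08 (adjusted p = 0.561).

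Kif5b, the widely expressed kinesin-1 heavy chain, depended on the probe set. The brightest set differed by 0.05 ± 0.09 between B7-2 and anti-CD3 wells (adjusted p = 0.747), while the other 4 sets were called higher in that comparison, at 0.46, 0.44, 0.46 and 1.03. Against anti-CD3 wells, BTNL2 wells were higher by 0.29 ± 0.09 with the brightest set (adjusted p = 0.0435, lost with any array left out, 0.120 to 0.168), and by 0.49, 0.46, 0.63 and 1.14 with the others. Kif1c, another kinesin-3, was higher in B7-2 than in anti-CD3 wells (0.66 ± 0.18, adjusted p = 0.0374, up to 0.157), at 38.3 and 44.7 in B7-2 wells against 21.5 and 31.8 in anti-CD3 wells. Kif7, which works in cilia in Hedgehog signalling, was lower than in anti-CD3 wells by -0.39 in BTNL2 wells (adjusted p = 0.0331) and -0.41 in B7-2 wells (adjusted p = 0.0316), at intensities of 20.6 to 30.2. Both Kif7 calls held in 1 of 4 fits with 1 array left out (adjusted p up to 0.153 and 0.159). Of the 89 genes, 10 lay below the 40th percentile of intensity of 12.4, and their differences rest on signal close to background. All of these except Kif15 are kinesins outside the mitotic list, among them Kif2b and Kif28.

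**Figure D5:**
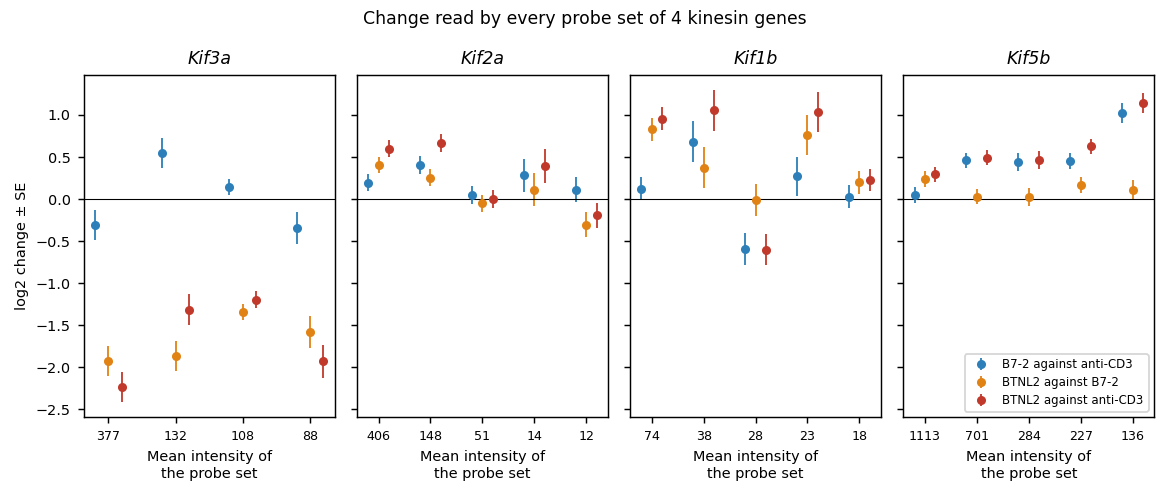
Log2 difference with standard error (vertical axis) read by each probe set of Kif3a, Kif2a, Kif1b and Kif5b, with the mean intensity of the probe set along the horizontal axis and the 3 comparisons in colour. All Kif3a sets lie well below 0 in both BTNL2 comparisons, while 1 Kif1b set at -0.60 lies opposite to 3 others, and the Kif5b set at 1113 shows less difference than the rest.

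Mitotic genes that the symbol rule does not reach were read from a separate list of 62, of which 59 were measured. Of these, 29 were higher and none lower in BTNL2 than in anti-CD3 wells (49.2% called against 30.4% of all genes, median 0.35). In B7-2 wells 15 were higher and 1 lower than in anti-CD3 wells (27.1% against 24.5%, median 0.16). In BTNL2 wells 10 were higher and 1 lower than in B7-2 wells (18.6% against 20.4%, median 0.19). Every measured gene of this list had intensities above the 40th percentile. With genes below that percentile left out, the shares of all genes called were 45.7%, 38.8% and 32.4% in the same order. Knl1, the outer kinetochore scaffold, had 122 and 135 in BTNL2 wells, 113 and 109.7 in B7-2 wells and 67.7 and 62.5 in anti-CD3 wells, a difference of 0.98 between BTNL2 and anti-CD3 wells (adjusted p = 0.000389). Fbxo5, the inhibitor Emi1 of the anaphase-promoting complex, and Gtse1 differed by 0.92 and 0.88 in that comparison (adjusted p = 0.000625 and 0.000517). Between B7-2 and anti-CD3 wells the largest called rises were Zwilch (0.93, adjusted p = 0.000732), a subunit of the RZZ checkpoint complex, Tubg1 (0.87, adjusted p = 0.00221), the gamma-tubulin of spindle poles, and Mybl2 (0.87, adjusted p = 0.00798), a factor of late cell cycle transcription. Cdc25b, a phosphatase of mitotic entry, was lower there (-0.62, adjusted p = 0.00240). Among the genes called between BTNL2 and B7-2 wells, Depdc1a (0.55, adjusted p = 0.0432), Nek2 (0.52, adjusted p = 0.00747) and Mis12 (0.52, adjusted p = 0.00869) rose most, and Pttg1, the separase inhibitor securin, was lower (-0.46, adjusted p = 0.0180).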

How the data were processed

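RNA of 6 cultures was amplified and hybridised to 1 array each, per the labels' protocols. The deposited values were probe set intensities on a linear scale, made with RMA per the submitters' processing notes; its version is not given in the sources used here. RMA makes array distributions alike, so a shift common to most transcripts is not seen. The design had assumed log2 values, so log2 was taken first. Of 45141 probe sets, 28898 named 1 gene, 551 several and 15588 none here; Entrez identifiers gave current symbols for 28689. The brightest probe set stood for a gene, with no filter. Groups were compared with limma 3.58.1 in R 4.3.3 (lmFit, eBayes, all 6 arrays, 3 residual and 4.02 prior degrees of freedom), two-sided, with Benjamini-Hochberg adjustment over 17097 genes. Single probe sets were adjusted over 28898. The procedure was tested on simulated data, whose noise model and pass mark were revised after a first version recovered fewer changes than its mark required.

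The genes, lists and tests were chosen with earlier results of these data known. Named genes were the 10 largest called rises and falls without overlap per comparison, 15 followed throughout (Aurka, Aurkb, Plk1, Bub1, Bub1b, Cdc20, Birc5, Top2a, Kif11, Cenpe, Cenpa, Ndc80, Mad2l1, Ttk and Espl1), and the 3 largest of the other mitotic genes. Some further genes (among them Plk4, Tpx2, Spc24, Kif4, Kif18a and Kif5b) were named after their values were seen. Promoters were not listed for Aurkb, Incenp, Kif13b, Kif20a, Kif21b, Kif28, Kif5a, Kif5b, Ska1, Spc24 and Tpx2. Replicate numbers did not pair the arrays. Alternatives changed the variance prior, the arrays fitted, the dim-gene filter, the scaling, the probe set rule, the replicate block and each array.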

Additional observations from a re-analysis of the deposited data

How the results depend on the processing

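Under the alternatives run, no called difference of a named gene changed sign. Of 132 differences of named genes, 24 that did not pass changed sign, among them Aurkb between BTNL2 and B7-2 wells (-0.39 to 0.24) and Kif3a between B7-2 and anti-CD3 wells (-0.34 to 0.01). The counts of called kinesin, kinetochore and spindle genes stayed within 1.5 times of their values under every alternative that kept all arrays of the comparison. With 1 array left out they were 7 to 11 for BTNL2 against B7-2 wells, 8 to 10 for B7-2 against anti-CD3 wells and 18 to 30 for BTNL2 against anti-CD3 wells. Replicate numbers did not pair the arrays (r = -0.03, -0.06 and -0.00 in the same order), and with a replicate block the counts were 15, 16 and 34. The median log2 difference between BTNL2 and anti-CD3 wells was 0.25 without dim genes, 0.16 with the mean over probe sets, and 0.17 to 0.24 with 1 array left out; for BTNL2 against B7-2 wells it was 0.0374 to 0.119. Other mitotic genes called between BTNL2 and B7-2 wells numbered 23 with an intensity trend, 6 with only the 4 arrays, and 2 to 9 with 1 array left out. Between B7-2 and anti-CD3 wells they numbered 26 with the trend and 8 to 11 with 1 array left out, and between BTNL2 and anti-CD3 wells 17 to 23. Without dim genes, 23 and 26 of 79 genes were called in the first 2 comparisons, a smaller share than among all genes, and 42 in the third, a larger one. Calls of single named genes were lost mainly with 1 array left out, where losses far outnumbered gains. Other settings lost 44 and gained 23. Causes of these changes were not tested. Differences of the 10 genes near background are limited by their signal.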
